A study of Homo sapiens with 27 samples.

Results

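Human chromosomes 19 and 18 differ far less in length than in gene content. They were compared here as targets of piggyBac-type transposons in HCT116, a human colorectal carcinoma cell line in established use. All listed insertions on the 2 chromosomes were taken, and nothing measured was used to choose them. Summed over 27 libraries, chromosome 19 held 79290 sites and chromosome 18 held 118569. Together these were 197859 of the 5365773 sites listed on chromosomes 1 to 22 and X. A position listed in several libraries counts once in each of them. The RefSeq annotation of GRCh38.p14 bore out the labels gene-rich and gene-poor. Chromosome 19 spanned 58.6 Mb with 1451 protein-coding genes, or 24.8 per Mb, and chromosome 18 spanned 80.3 Mb with 270, or 3.36 per Mb. The median protein-coding gene was 14.3 kb long on chromosome 19 and 51.3 kb on chromosome 18.

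A piggyBac transposase cuts its transposon out of DNA and inserts it at the sequence TTAA, and the element is known to enter transcribed genes and open chromatin more often than silent DNA. Chromosome 19 carries large clusters of zinc finger genes, and chromosome 18 carries several very long genes of nerve and adhesion function. In nuclei of several human cell types chromosome 19 lies toward the interior and chromosome 18 toward the periphery.

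Self-reporting transposons, whose internal promoter transcribes into the neighbouring genome so that an insertion can be read from RNA, were transfected with a transposase, and all cells were kept in puromycin at 3 µg/ml for 2 weeks, so that every library comes from cells that survived selection. The 9 groups had 3 libraries each. The wild-type transposon met 4 transposases: piggyBac in the group WT_PB, its hyperactive form in WT_hyPB, a re-engineered form in WT_rePB, and a form both re-engineered and hyperactive in WT_rehyPB. A short transposon met piggyBac in short_PB and the hyperactive form in short_hyPB. A symmetric transposon met the re-engineered form in sym_rePB and the form with both changes in sym_rehyPB. The last group held piggyBat, labelled as wild-type transposon and piggyBat (WT_PBat). The labels do not say what re-engineered, short and symmetric change, and name no genotype. They do not say that replicates were separate cultures, so p-values measure only the spread between these samples, which may be technical.

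The libraries were of unequal depth. The 12 libraries of the first 4 groups had file totals, taken as mapped reads, of 8118085 to 12051190 and listed 348662 to 598952 peaks. The 15 libraries of the other groups had totals of 142666 to 256608 and listed 2846 to 9311 peaks. Depth therefore cannot be told apart from the short and symmetric transposons and from piggyBat by these totals. Some replicates were linked: WT_hyPB replicates 1 and 2 shared 75.1% and 75.5% of their chromosome 19 sites, against 33.3% to 38.6% for the other pairs of that group, and WT_PBat replicates 1 and 3 shared 62.7% and 50.5%, against 9.86% to 12.5%. Averaging each linked pair to 1 library left every test of the density ratio and the share given below on the same side of its threshold.

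The target itself could be read only in promoter windows, from 250 bases before to 50 bases after an annotated start, taken from RefSeq on GRCh38.p14. Summed over the 27 libraries, 1575 sites fell in such windows of chromosomes 19 and 18, and 97.5% of them lay exactly on a TTAA. The 3 promoter TTAA found in the most libraries on each chromosome are shown, to let the shared target and its differing surroundings be seen. Each runs 5′ to 3′ on the strand of the named gene, with the 4 target bases in capitals.
SLC1A5: gctgtccagggtaTTAAgtttgctgcatgg
LOC124904733: ctctcgctgctccTTAAaccaacacctcag
MZF1-AS1: cggtcacttcatcTTAAgttgtatatatgt
DLGAP1-AS2: caacaaatgtactTTAAatactagcacagt
DLGAP1-AS1: agagagttcgtcaTTAAagaaaaaaaaaaa
GNAL: ctgggaaccccttTTAAggagcagggaatc
The first 3 lie on chromosome 19, at chr19:46784874-46784903 on the minus strand, chr19:47729649-47729678 on the minus strand and chr19:58559176-58559205 on the plus strand. The others lie on the plus strand of chromosome 18, at chr18:3603695-3603724, chr18:3593992-3594021 and chr18:11857711-11857740. SLC1A5, a neutral amino acid transporter, had its TTAA 76 bases before the start listed in 18 libraries, 10 of them shallow. The TTAA before DLGAP1-AS2, an antisense RNA gene inside the DLGAP1 locus, was listed in 21 libraries, including all 12 deep ones. A site that recurs at the same base in several libraries can be a repeated insertion or shared material, and which was not tested.

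TTAA was rarer in the promoters of chromosome 19. It occurred in 32.9% of 1917 windows on chromosome 19, which had a GC content of 62.4%, and in 55.3% of 721 windows on chromosome 18, with a GC content of 54.8%. Per kb of promoter there were 1.61 TTAA on chromosome 19 and 3.68 on chromosome 18. Of 853 distinct promoter TTAA on chromosome 19, 247 (29.0%) were hit in at least 1 library, and of 767 on chromosome 18, 180 (23.5%). Per 1000 promoter TTAA and 100000 autosomal sites, WT_PB hit 26.3 ± 3.2 (SD, n = 3) on chromosome 19 and 16.6 ± 2.2 on chromosome 18. The same rates were 11.8 ± 1.5 and 11.1 ± 0.54 in WT_rePB, a difference within the spread. They were 99.9 ± 8.3 and 38.7 ± 17 in short_PB and 92.7 ± 23 and 22.6 ± 6.4 in WT_PBat, and in sym_rehyPB, where the order was the other way, 39.0 ± 18 and 66.5 ± 38. Each library of these 3 groups had at most 8 such sites on a chromosome. Over the autosomes with promoter windows the rate was 23.7 ± 1.2 in WT_PB and 41.2 ± 1.8 in WT_PBat. The target frequency outside promoters was not analysed here.

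In the deep libraries, sites were sparser on chromosome 19 than on chromosome 18. WT_PB listed 99.4, 78.9 and 95.9 sites per Mb on chromosome 19 in its 3 libraries, and 119, 92.7 and 112 on chromosome 18. As shares of autosomal sites these were 1.36% ± 0.0023 (SD, n = 3) on chromosome 19 and 2.2% ± 0.024 on chromosome 18, and the groups of values did not overlap. An even spread over the autosomes would give 2.04% and 2.79%, so both chromosomes lay below their share of length. The chromosome 19 share was 1.55% ± 0.036 in WT_hyPB, 1.41% ± 0.0046 in WT_rePB and 1.55% ± 0.051 in WT_rehyPB. Chromosome 18 took 2.26% ± 0.0079, 2.30% ± 0.017 and 2.28% ± 0.017 in the same groups. In each of the 12 deep libraries chromosome 18 was the denser one.

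The shallow libraries showed the opposite order. In short_PB chromosome 19 took 2.82%, 2.98% and 2.88% of autosomal sites and chromosome 18 took 1.96%, 1.91% and 1.65%. In sym_rePB the values were 4.69%, 4.01% and 4.63% against 2.01%, 1.61% and 2.09%. All 6 of these libraries had chromosome 19 above its share of length and chromosome 18 below. In short_hyPB the chromosome 19 share was 4.07% ± 0.14 against 1.95% ± 0.090 on chromosome 18, and in sym_rehyPB it was 4.86% ± 0.19 against 1.75% ± 0.039. WT_PBat placed 4.73%, 4.84% and 4.78% of its sites on chromosome 19 and 1.30%, 1.26% and 1.37% on chromosome 18, the lowest chromosome 18 shares of the 27 libraries. Few sites stand behind these values, from 112 to 416 per library on chromosome 19 and from 45 to 177 on chromosome 18. In the library with fewest, sym_rePB replicate 2, the 95% Clopper-Pearson intervals ran from 3.31% to 4.80% for chromosome 19 and from 1.18% to 2.15% for chromosome 18, and such intervals cover counting error only.

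**Figure D1:**
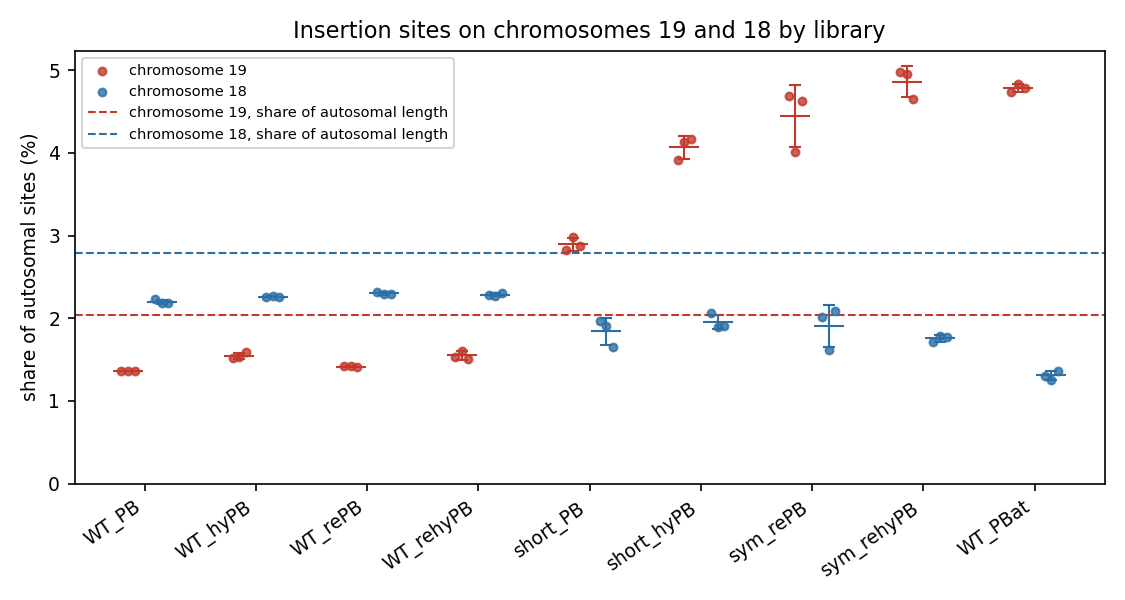
Share of autosomal sites in percent on chromosome 19 (red) and chromosome 18 (blue) in each of the 27 libraries, by group, with the mean and SD of 3 libraries as bars and the share of autosomal length as dashed lines (2.04% and 2.79%). Chromosome 18 lies above chromosome 19 in the 4 deep groups on the left and below it in the 5 shallow groups on the right.

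The density ratio, sites per Mb on chromosome 19 over sites per Mb on chromosome 18 within a library, put both chromosomes on 1 scale. Its mean was 0.848 ± 0.010 for WT_PB and 0.841 ± 0.0055 for WT_rePB (SD, n = 3), and the hyperactive forms stood at 0.938 ± 0.023 for WT_hyPB and 0.929 ± 0.037 for WT_rehyPB. The short transposon gave 2.16 ± 0.21 for short_PB and 2.85 ± 0.22 for short_hyPB, and the symmetric transposon 3.19 ± 0.18 for sym_rePB and 3.78 ± 0.19 for sym_rehyPB. WT_PBat had the highest mean, 5.00 ± 0.24. No shallow library overlapped a deep one. Over the 9 group means the log2 ratio averaged 0.87, with 5 groups above 0, and the exact sign-flip test gave an unadjusted and an adjusted p = 0.0625, so a difference in 1 direction over all groups was not shown.

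Each component of the system was then compared over pairs of groups that differ in it, with two-sided exact permutation tests adjusted over 15 tests. Several of these comparisons share WT_PB, WT_hyPB, WT_rePB or WT_rehyPB libraries, so they are not independent of each other. Hyperactive transposase went with a higher log2 ratio in 4 of 4 pairs, by 0.23 on average (adjusted p = 0.000188), and with a chromosome 19 share higher by 0.479 percentage points (adjusted p = 0.000188). The raw p of the ratio, 1.25e-05, is the smallest this design can give. In the pairs with wild-type transposon the log2 ratio was higher by 0.15 in WT_hyPB than in WT_PB and by 0.14 in WT_rehyPB than in WT_rePB. WT_rePB had the larger file totals of the latter pair, 11383590 to 12051190 against 8118085 to 9364852. With heights thinned to the smallest total of these 4 groups, an alternative chosen after the data were seen, the differences were 0.15 and 0.073. With peaks under a height of 10 left out, the mean change of the log2 ratio was 0.18 and no longer passed (adjusted p = 0.110). With all libraries of the 4 pairs thinned to their smallest file total it was 0.25 (adjusted p = 0.266). The order of WT_hyPB and WT_PB was then reversed, at 0.48 ± 0.51 against 0.75 ± 0.60. Only 10 to 23 sites per chromosome were left in a library of these 2 groups. The change of the share passed in both settings.

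For re-engineering of the transposase neither measure passed: the mean change of the log2 ratio was −0.01 (adjusted p = 0.465), and the chromosome 19 share differed by 0.027 points (adjusted p = 0.242). The short transposon went with a log2 ratio higher by 1.47 and a chromosome 19 share higher by 2.03 points, and the symmetric transposon with 1.97 and 3.17 points (adjusted p = 0.0107 for all 4, the raw p of 0.005 being the smallest possible). piggyBat stood 2.56 above WT_PB in log2 ratio and 3.42 points in share, and with 3 libraries against 3 the test cannot go below the p of 0.1 that it gave (adjusted p = 0.125).

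Depth moved with these contrasts. Heights in the compared libraries were therefore thinned to the smallest file total among them and the limit of 5 applied again. The log2 ratio was then 0.13 ± 0.36 in WT_PB against 1.13 ± 0.17 in short_PB, and 0.83 ± 0.55 in WT_rePB against 1.69 ± 0.15 in sym_rePB. For piggyBat it was 0.74 ± 0.84 in WT_PB against 2.43 ± 0.10 in WT_PBat, with only 3 to 21 sites per chromosome left in a WT_PB library. The wild-type libraries thus moved from negative to positive means. The short effect became 0.97 and the symmetric effect 1.09, and both still passed (exact permutation test, adjusted p = 0.01875 each). Numbers of sites stayed unequal after this thinning. WT_PB kept 570 to 1024 autosomal sites beside 7138 to 8896 in short_PB, and WT_rePB 658 to 689 beside 2345 to 2959 in sym_rePB. In the other short pair the log2 ratio was 0.69 ± 0.64 in WT_hyPB against 1.65 ± 0.092 in short_hyPB. In the other symmetric pair it was 0.61 ± 0.42 in WT_rehyPB against 1.94 ± 0.069 in sym_rehyPB. Depth and these effects thus cannot be told apart here.

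Among the 22 autosomes, chromosome 19 had the largest proportional change of share in 4 of 5 comparisons. Its share rose 1.18-fold with hyperactive transposase, 2.36-fold with short transposon, 3.14-fold with symmetric transposon and 3.51-fold with piggyBat, and it stood at rank 8 for re-engineering with 1.02-fold. Chromosome 18 changed 0.999-fold, 0.850-fold, 0.797-fold and 0.594-fold in the first 4 of these comparisons and ranked 13, 16, 17 and 20. In WT_PB, chromosome 19 ranked 21 of 22 in site density and chromosome 18 ranked 17. In WT_PBat they ranked 2 and 20. As a description over 22 autosomes that share each library, site density and protein-coding genes per Mb had Pearson r of −0.13 in WT_PB, 0.60 in short_PB and 0.83 in WT_PBat. Without chromosome 19 the values were 0.19, 0.73 and 0.90, so in WT_PB the sign rested on this chromosome.

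**Figure D2:**
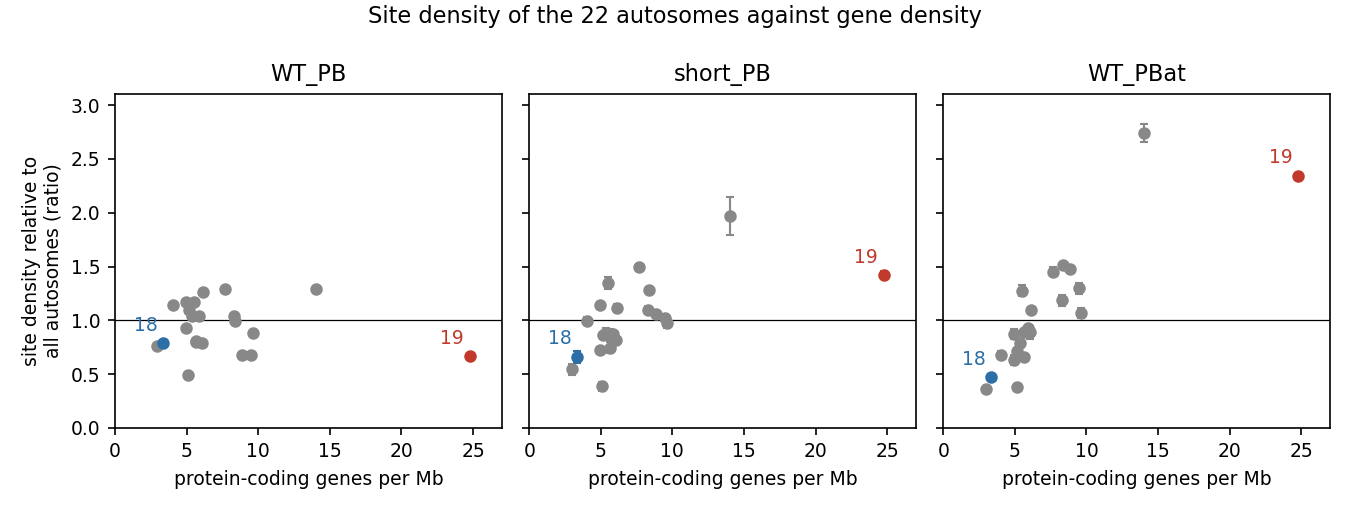
Site density of each of the 22 autosomes relative to all autosomes (ratio, 1 as a line) against protein-coding genes per Mb in WT_PB, short_PB and WT_PBat, as mean and SD of 3 libraries. Chromosome 19 (red, 24.8 genes per Mb) lies low in WT_PB and high in WT_PBat, while chromosome 18 (blue, 3.36 genes per Mb) lies below 1 in all 3 panels.

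Peak height, the maximum coverage of a peak, was greater on chromosome 19. In WT_PB the median height was 14.7 ± 1.2 on chromosome 19 and 11.7 ± 0.58 on chromosome 18 (SD, n = 3), and in WT_PBat 8 ± 0 and 7 ± 1. The mean log2 height was higher on chromosome 19 in 9 of 9 groups, by 0.16 on average (exact sign-flip test, adjusted p = 0.00521). The difference ran from 0.04 in short_hyPB to 0.27 in WT_PB. Peaks of height 50 or more made up 9.58%, 11.8% and 9.94% of chromosome 19 sites in WT_PB and 5.26%, 6.87% and 5.68% of chromosome 18 sites. The tallest was 276 on chromosome 19 and 283 on chromosome 18 in that group. With heights thinned to the smallest total the mean difference fell to 0.02 (adjusted p = 0.668).

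The order of the chromosomes in the deep libraries depended on height. In WT_PB the log2 density ratio was −0.60 ± 0.13 (SD, n = 3) among peaks of height 5 to 6, −0.48 ± 0.030 at 7 to 9, −0.38 ± 0.023 at 10 to 19, 0.09 ± 0.061 at 20 to 49 and 0.58 ± 0.029 at 50 or more. Chromosome 19 was thus the sparser one among low peaks and the denser one among tall peaks. At 50 or more the ratio was 0.65 ± 0.055 in WT_hyPB, 0.56 ± 0.053 in WT_rePB and 0.53 ± 0.068 in WT_rehyPB. The tall class of WT_PB held 546 to 559 sites on chromosome 19 and 502 to 511 on chromosome 18. In short_PB the ratio was already 0.94 ± 0.12 at heights of 5 to 6 and 1.15 ± 0.17 at 10 to 19. Height depends on local transcription and PCR as well as on the number of cells with an insertion, and these cannot be told apart.

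**Figure D3:**
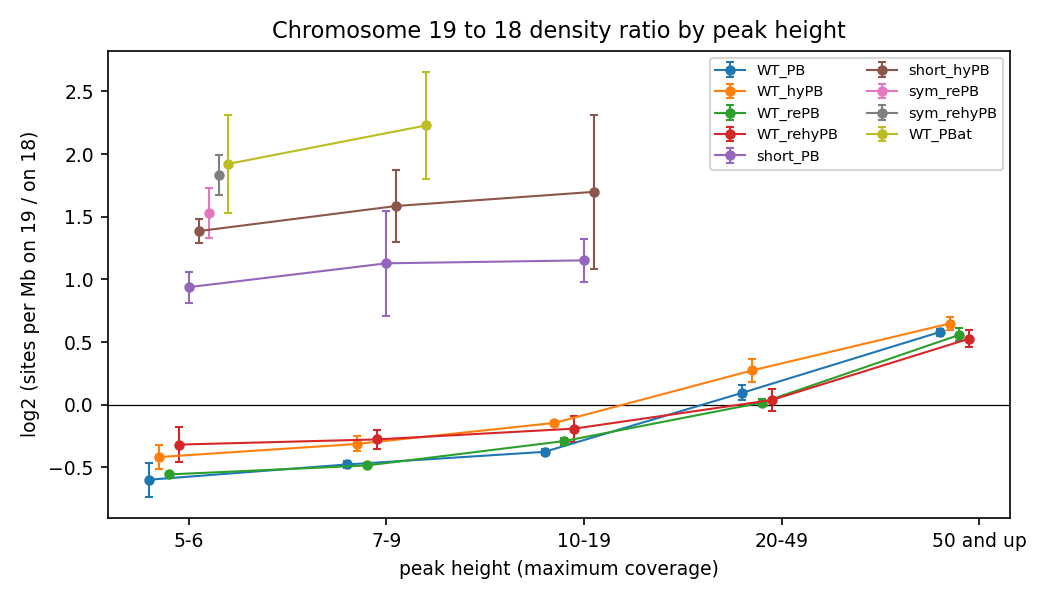
Log2 ratio of site density on chromosome 19 over chromosome 18 by class of peak height, as mean and SD of 3 libraries per group, for classes with enough sites in every library of the group. The 4 deep groups rise from below 0 at heights of 5 to 6 (−0.60 in WT_PB) to 0.53 to 0.65 at 50 and up, and the shallow groups lie above 0 in each class shown.

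Genes cover more of chromosome 19, yet the share of sites inside genes was larger on chromosome 18. This difference did not pass its test without the sites inside the gene DLGAP1, whose removal can only lower the chromosome 18 share. Annotated genes covered 63.6% of chromosome 19, and 60.9% ± 0.23 of its WT_PB sites lay inside one (SD, n = 3). On chromosome 18 they covered 49.5% and held 62.8% ± 0.41 of WT_PB sites. The share inside genes was lower on chromosome 19 in 9 of 9 groups, by 8.88 points on average (exact sign-flip test, adjusted p = 0.00521). Relative to the covered sequence, WT_PB sites inside genes were 0.957 ± 0.0037 times the even expectation on chromosome 19 and 1.27 ± 0.0084 times on chromosome 18. They were 0.988 ± 0.014 and 1.57 ± 0.067 times in WT_PBat and 0.850 ± 0.012 and 1.53 ± 0.018 times in sym_rehyPB. Without the sites inside DLGAP1, an alternative chosen after the data were seen, the difference between the chromosomes was −2.82 points, was negative in 7 of 9 groups and did not pass (exact sign-flip test, adjusted p = 0.0820). With DLGAP1 left out of the sites and of the covered sequence, chromosome 18 sites inside genes were 1.26 ± 0.0078 times the even expectation in WT_PB. Over the groups this value ran from 1.13 ± 0.042 times in sym_rePB to 1.55 ± 0.077 times in WT_PBat, with 1.28 ± 0.017 times in sym_rehyPB. With protein-coding genes alone the mean difference was −6.40 points and did not pass (adjusted p = 0.0781).

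Sites near gene ends, no more than 5 kb from an annotated gene's start or end, were more frequent on chromosome 19, where such sequence is also more common. They made up 58.0% ± 0.54 of WT_PB sites on chromosome 19, against 47.7% of the sequence, and 30.2% ± 0.045 on chromosome 18, against 18.1%. The share was higher on chromosome 19 in 9 of 9 groups, by 22.5 points on average (exact sign-flip test, adjusted p = 0.00521). Relative to the sequence, chromosome 18 had the stronger excess: 1.66 ± 0.0025 times in WT_PB against 1.22 ± 0.011 on chromosome 19, and 3.00 ± 0.20 times in WT_PBat against 1.34 ± 0.0035. In WT_PBat the share reached 58.7%, 51.8% and 52.9% on chromosome 18 and was 63.9%, 63.9% and 64.2% on chromosome 19, the smallest gap among the 9 groups at the deposited depth.

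Of the 5 component effects on the gap between the chromosomes in gene-end share, re-engineering went with a gap that changed by −1.85 points on average, −2.44 from WT_PB to WT_rePB and −1.27 from WT_hyPB to WT_rehyPB (exact permutation test, adjusted p = 0.0107). WT_PB had a gap of 27.9 ± 0.50 points and WT_rePB one of 25.4 ± 0.24. This call was lost with peaks of height 10 or more (−1.35 points, adjusted p = 0.075) and with a distance of 10 kb (−0.423 points, adjusted p = 0.431), and with any 1 replicate number left out, where fewer samples raise the smallest possible p. The other effects did not pass: −2.08 points for hyperactive (adjusted p = 0.249), −5.74 for short (adjusted p = 0.0938), −4.33 for symmetric (adjusted p = 0.125) and −18.3 for piggyBat (adjusted p = 0.125). Near protein-coding genes alone the short effect was 5.30 points and the symmetric effect 11.4 points, of opposite sign and past the threshold (adjusted p = 0.00833 each), so that the direction of these effects depends on which genes are counted. The hyperactive effect turned to 0.935 points there. With heights thinned to the smallest file total the piggyBat effect turned to 4.13 points, at a gap of 7.02 ± 25 in WT_PB and 11.2 ± 4.3 in WT_PBat.

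**Figure D4:**
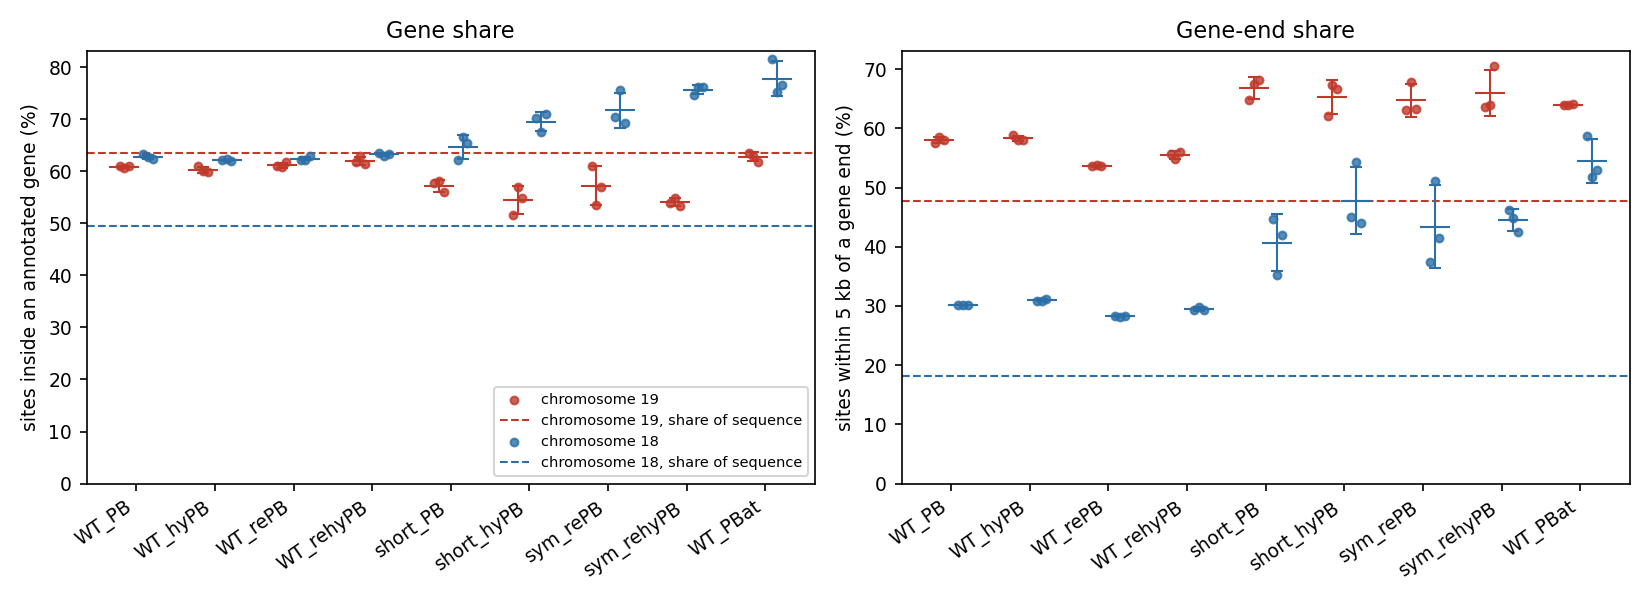
Percent of sites inside an annotated gene (left) and within 5 kb of a gene end (right) on chromosomes 19 (red) and 18 (blue) in each library, with mean and SD of 3 libraries and the share of sequence as dashed lines. Gene-end shares on chromosome 19 exceed those on chromosome 18 in all 9 groups, and chromosome 18 exceeds its own share of sequence (18.1%) in every library.

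Close to transcription starts the chromosomes differed in the same way. Within 1 kb of an annotated start lay 11.8% ± 0.87 of WT_PB sites on chromosome 19 and 4.92% ± 0.40 on chromosome 18 (SD, n = 3), against 5.24% and 1.49% of the sequence. In WT_rePB the shares were 7.06% ± 0.041 and 3.16% ± 0.10. Both lay below the WT_PB values on each chromosome with no overlap of the means and SDs. In WT_PBat they were 12% ± 0.65 and 11.7% ± 1.5, within the spread of each other. Where a peak lay in genes of a single strand, its own strand matched that of the gene in 42.0% ± 1.1 of cases on chromosome 19 and 37.4% ± 0.63 on chromosome 18 in WT_PB. In the shallow groups this share ranged from 39.8% to 45.5% on chromosome 19 and from 44.1% to 53.3% on chromosome 18, with 28 to 90 peaks per library behind the chromosome 18 values.

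The many small genes of chromosome 19 were hit less completely. WT_PB libraries had sites inside 744 to 798 of its 1451 protein-coding genes, or 53.6% ± 2.0, with 3.69 ± 0.44 sites per gene. On chromosome 18 they had sites inside 232 to 242 of 270 genes, or 87.7% ± 1.9, with 32.1 ± 4.1 sites per gene. Even WT_PBat, with its high chromosome 19 share, hit 10.9% ± 0.68 of genes on chromosome 19 and 16% ± 2.9 on chromosome 18.

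Along the chromosomes, differences between groups were tested in bins with limma, fitted over all bins of chromosomes 1 to 22 and X. Hyperactive transposase changed 21 of 50 tested 1-Mb bins on chromosome 19, 20 of them upward, and 6 of 70 on chromosome 18, 3 each way, at an adjusted p of 0.05 or less. Over all bins 24.5% were called, 10.7% upward. The median log2 change was 0.18 over the chromosome 19 bins, −0.01 over the chromosome 18 bins and −0.03 over all bins. Scaled by the median over bins, 29 bins of chromosome 19 were called, all upward, and 8 upward and 1 downward on chromosome 18. Without 1 replicate number in turn, 10 to 14 bins were called on chromosome 19 and 3 on chromosome 18, the lowest without replicate 2. Leaving out replicate 1 or 2, which breaks the WT_hyPB link, gave 13 and 10 bins on chromosome 19, and leaving out replicate 3 gave 14. Here and below limma took the linked replicates of WT_hyPB and WT_PBat as separate samples, so SEs and p-values of bins may be too small.

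Named bins of chromosome 19 show the extent of the hyperactive change. The bin at 18 to 19 Mb, which holds PGPEP1, SSBP4 and IL12RB1, had 142 to 162 sites in WT_PB and 195 to 228 in WT_hyPB (log2 change 0.30, SE 0.054, limma adjusted p = 8.98e-06). At 49 to 50 Mb, around NOSIP, which encodes a partner of nitric oxide synthases, sites went from 128 to 156 up to 191 to 206 (log2 change 0.29, SE 0.055, adjusted p = 2.53e-05). The single lower bin, at 30 to 31 Mb, holds ZNF536 and URI1 (log2 change −0.30, SE 0.11, adjusted p = 0.0343). On chromosome 18 the bin at 61 to 62 Mb, with the cadherin gene CDH20, fell by 0.27 on the log2 scale (SE 0.065, adjusted p = 0.0013), and the bin at 3 to 4 Mb, with DLGAP1 and TGIF1, rose by 0.15 (SE 0.029, adjusted p = 4.13e-05).

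Re-engineering called 6 of 50 bins on chromosome 19, 4 upward, and 13 of 70 on chromosome 18, 10 upward, against 17% of all bins (9.38% upward, 7.63% downward). Chromosome 19 was thus below and chromosome 18 near the share over all bins. Without 1 replicate number the counts ran from 0 to 4 and from 5, without replicate 1, to 11, with none called on chromosome 19 without replicate 2 by limma (8 bins at an unadjusted p under 0.05). Under the median scale the directions on chromosome 19 were 3 upward and 4 downward, and on chromosome 18 they were 7 and 4. The largest change on chromosome 18 was at its end, 80 to 81 Mb with PARD6G and TXNL4A, where WT_PB had 21 to 41 sites and WT_rePB 48 to 63 (log2 change 0.60, SE 0.13, adjusted p = 0.000383).

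The short, symmetric and piggyBat comparisons allowed only 5-Mb bins. Bins were tested where their mean share over the compared libraries gave at least 5 expected sites in the smallest library. A bin can thus pass through the groups where it is high, and counts refer to the tested bins. No bin fit thinned heights to equal file totals, so changes in these comparisons cannot be told apart from depth. With the short transposon 9 of 10 tested bins were higher on chromosome 19, and 8 of 13 were called on chromosome 18, 1 upward and 7 downward. Over all bins 72% were called (27.8% upward, 44.1% downward). Without replicate 2 of the 4 groups 4 bins were called on chromosome 18. With the symmetric transposon 7 of 7 bins were higher on chromosome 19 and 1 of 2 on chromosome 18, against 65.3% of all bins called (41.6% upward). The tested chromosome 18 bin that rose holds DLGAP1. With no filter on low bins, 10 of 12 bins of chromosome 19 were called, all upward, and 12 of 17 of chromosome 18, 3 upward and 9 downward. Over all bins 394 of 600 were then called, 136 of them upward. In larger bins of chromosome 18, 1 was upward and 3 downward. With piggyBat 9 of 10 bins were higher on chromosome 19, and 7 of 12 were called on chromosome 18, 6 of them downward. Over all bins 71.8% were called (28.5% upward, 43.3% downward). Medians over chromosome 19 bins were 1.21, 1.65 and 1.70 in these comparisons, beside −0.26, 0.23 and −0.31 over all bins. Those medians are not at 0. With the median over bins as scale, the chromosome 18 calls were 2 upward and 2 downward for short, 1 and 1 for symmetric, and 2 and 4 for piggyBat.

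The first 5 Mb of each chromosome stood out in these bins. On chromosome 19 they hold AP3D1, TJP3 and GNG7, and the log2 change was 1.82 for short (SE 0.067), 2.71 for symmetric (SE 0.11) and 2.48 for piggyBat (SE 0.064), with limma adjusted p of 1.94e-11, 1.98e-11 and 9.81e-07. On chromosome 18 they hold DLGAP1, TGIF1 and COLEC12. That bin was the upward one for short (1.06, SE 0.068, adjusted p = 8.65e-09) and for symmetric (1.73, SE 0.080, adjusted p = 7.04e-11). Bins that fell included 35 to 40 Mb with MAPRE2 and FHOD3 for short, by 1.25 on the log2 scale (SE 0.26, adjusted p = 0.000705), and 30 to 35 Mb with GAREM1 and DTNA for piggyBat, by 2.35 (SE 0.38, adjusted p = 0.00123), where WT_PBat had 1 to 5 sites per library.

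By the mean of the 9 group means per 10000 autosomal sites, in which shallow groups weigh as much as deep ones, the densest 1-Mb windows of chromosome 19 were 18 to 19 Mb (PGPEP1, SSBP4), 4 to 5 Mb (SH3GL1, UHRF1), 13 to 14 Mb (CACNA1A, NFIX), 1 to 2 Mb (KLF16, SCAMP4) and 47 to 48 Mb (EHD2, SAE1). In the 4 deep groups alone the order differed, with 46 to 47 Mb (ARHGAP35, SLC1A5) first and 13 to 14 Mb second. The occupied windows with the fewest sites were 20 to 21 Mb, which holds 8 protein-coding genes including the zinc finger genes ZNF85, ZNF682 and ZNF486, then 31 to 32 Mb with TSHZ3, and 28 to 29 Mb. No site was listed at 22 to 23 Mb, a window with 9 protein-coding genes including ZNF208 and ZNF257, nor at 25 to 27 Mb. On chromosome 18 the densest were 3 to 4 Mb (DLGAP1), 9 to 10 Mb (RAB31), 70 to 71 Mb (SOCS6), 23 to 24 Mb (LAMA3) and 58 to 59 Mb (NEDD4L), and 16 to 20 Mb were empty. The window at 3 to 4 Mb was first and that at 9 to 10 Mb second in the deep groups too. Repeats and unassembled sequence were not analysed here, so an empty window may be one in which reads could not be placed.

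The profile was more concentrated on chromosome 18. Its 5 densest windows held 19.7% ± 0.14 of its sites in WT_PB, 36.8% ± 3.5 in short_PB, 65.3% ± 4.0 in sym_rePB and 41.9% ± 4.6 in WT_PBat (SD, n = 3). On chromosome 19 the 5 densest held 17.7% ± 0.24, 24.8% ± 1.5, 32.1% ± 3.1 and 27.6% ± 2.3. As a description over windows that share the same libraries, Pearson r between sites and protein-coding genes per window in WT_PB was 0.40 over the 56 occupied windows of chromosome 19 and 0.59 over the 77 of chromosome 18.

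Within chromosome 18, DLGAP1 stood apart. It encodes a scaffold protein of the postsynaptic density and lies at chr18:3496032-4455307, 959 kb long. WT_PB had 345, 271 and 297 sites inside it, or 3.61%, 3.64% and 3.30% of chromosome 18 sites. In short_PB 10.7%, 12.4% and 16% of chromosome 18 sites lay there, in short_hyPB 28.5%, 28.7% and 26.95%, in sym_rePB 35.9%, 46.7% and 27.7%, and in sym_rehyPB 32.8%, 37.3% and 35%. WT_PBat had 8, 9 and 8 sites there, or 8.70%, 10.6% and 6.72%. No short or symmetric library overlapped a WT_PB, WT_hyPB, WT_rePB or WT_rehyPB library in this share.

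The DLGAP1 sites were packed into a small stretch. A 100-kb segment at chr18:3580001-3680000, chosen after its values were seen, makes up 10.4% of the gene. It held 62.3% ± 3.9 of the DLGAP1 sites in WT_PB, 49.2% ± 0.42 in WT_rePB, 85.4% ± 6.4 in short_PB, 99.1% ± 1.6 in short_hyPB and every DLGAP1 site in sym_rePB and sym_rehyPB. The antisense genes DLGAP1-AS1 and DLGAP1-AS2, whose target sites are printed above, start inside this segment. With the window of 3 to 4 Mb left out, an alternative chosen after the data were seen, the log2 density ratio rose from 1.67 ± 0.083 to 2.41 ± 0.28 in sym_rePB, from 1.11 ± 0.14 to 1.33 ± 0.19 in short_PB and from −0.24 ± 0.018 to −0.18 ± 0.017 in WT_PB. The symmetric effect on the log2 ratio was 2.62 without this window, beside 1.97 with it, and the short effect 1.77 beside 1.47. WT_PBat, highest with the window, then stood at 2.57 ± 0.073 beside 2.60 ± 0.066 in sym_rehyPB.

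**Figure D5:**
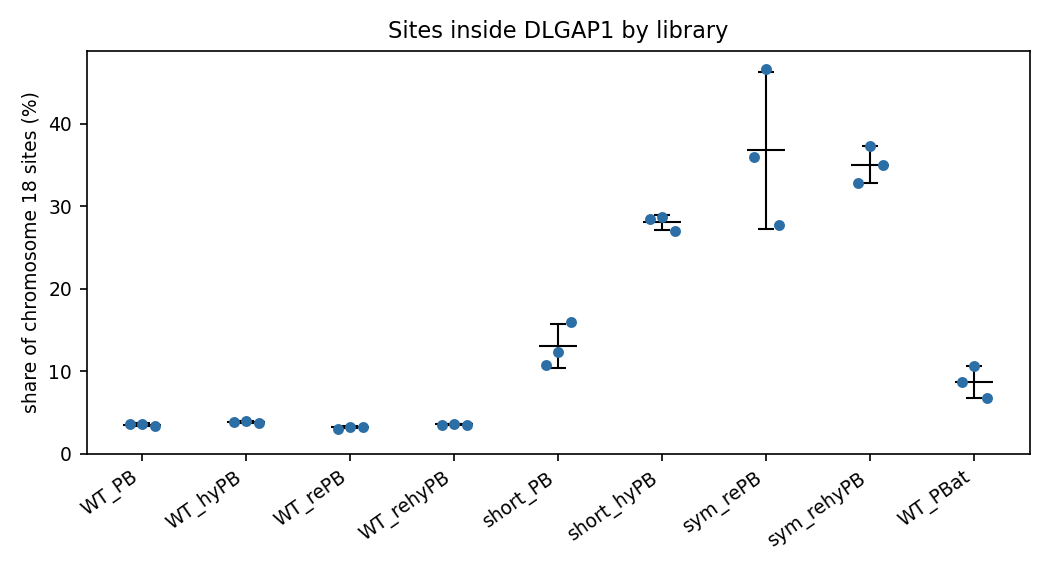
Share of chromosome 18 sites that lay inside DLGAP1 in each of the 27 libraries, in percent, with the mean and SD of 3 libraries per group as bars. The 12 deep libraries lie between 3.04% and 3.94%, and the symmetric-transposon libraries between 27.7% and 46.7%.

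The other leading genes of chromosome 18, ranked like the windows by the mean over the 9 groups, varied in direction. KCTD1, which encodes a transcriptional corepressor, took 2.96 to 3.61 of every 10000 autosomal sites in the deep groups, 5.94 ± 2.6 in short_PB and 7.05 ± 2.8 in short_hyPB. It took 4.36 ± 1.7 in sym_rePB, 5.07 ± 2.7 in sym_rehyPB and 0.766 ± 1.3 in WT_PBat. GNAL, a G protein alpha subunit of olfactory and striatal neurons, also had higher means in the short and symmetric groups, 1.86 to 3.24 against 1.32 to 1.66 in the deep groups, with SDs of 0.715 to 2.55 in the former. NEDD4L, a ubiquitin ligase that controls sodium channels, took 3.02 ± 0.145 in WT_PB and had 0 sites in all 3 sym_rePB libraries. PTPRM, a receptor tyrosine phosphatase in cell contacts and 840 kb long, had 174, 135 and 131 sites in WT_PB and none in the 6 symmetric-transposon libraries. The symmetric libraries had only 45 to 80 chromosome 18 sites each, of which DLGAP1 alone held 18 to 28. No expected count was computed for the other genes, and whether their zeros reflect low counts was not tested. LAMA3, a laminin chain of epithelial basement membrane, had 84, 61 and 75 sites in WT_PB and none in WT_PBat, and ALPK2, GNAL, MBP and GREB1L had at most 5 in any shallow library. TGIF1, a repressor in TGF-beta signalling that neighbours DLGAP1, went the other way with piggyBat: 0.95 ± 0.25 per 10000 sites in WT_PB and 6 ± 3.9 in WT_PBat, with 6, 1 and 7 sites, the higher counts in the linked replicates 1 and 3.

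The leading genes of chromosome 19 by the same mean were shorter and carried fewer sites each. In WT_PB alone AP3D1, first by this mean, had 0.241 per 10000 sites, and of the other leading genes only CARM1 (0.165) stood lower. ARHGAP35 (1.56), SIPA1L3 (1.41) and CACNA1A (1.35) were the highest of them in WT_PB. AP3D1, which encodes a subunit of the adaptor complex AP-3 for vesicle transport, lies at chr19:2100988-2164616. It had 10, 10 and 8 sites in WT_PB, 7, 4 and 5 in short_hyPB, and 2, 3 and 3 in sym_rePB. Per 10000 autosomal sites that was 0.241 ± 0.050 in WT_PB, 7.39 ± 1.9 in short_hyPB and 8.89 ± 2.3 in sym_rePB. The values of the shallow groups also enter the mean that ranked the leading genes, so they are no separate evidence of a difference. In sym_rePB, 1 site in each library already comes to 3.31 per 10000. ERCC1, a subunit of the nuclease of nucleotide excision repair, went from 0.446 ± 0.073 in WT_PB to 4.36 ± 1.7 in sym_rePB and 7.28 ± 1.8 in sym_rehyPB. TJP3, a tight junction scaffold, had 0.379 ± 0.036 in WT_PB and 5.55 ± 2.1 in sym_rePB, and CARM1, an arginine methyltransferase that acts as a coactivator, 0.165 ± 0.10 and 3.31 ± 0.23. The CARM1 value in sym_rePB is that of 1 site in each library, so its SD reflects library size only. ERCC1 and TJP3 also rest on few sites per symmetric library.

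ARHGAP35, a GTPase-activating protein, was high with piggyBat, at 6.51 ± 1.9 per 10000 sites against 1.56 ± 0.21 in WT_PB. Its means were also higher with the short transposon, at 4.10 ± 3.3 in short_PB and 3.20 ± 1.5 in short_hyPB. It was at 1.07 ± 1.9 in sym_rePB and 1.63 ± 1.4 in sym_rehyPB, within their spread of WT_PB. SIPA1L3, 301 kb long and involved in epithelial polarity, and the calcium channel gene CACNA1A, 300 kb long, were the long genes among the leaders. SIPA1L3 had 63, 49 and 54 sites in WT_PB and 1, 3 and 3 in WT_PBat, or 1.41 ± 0.085 and 3.10 ± 1.5 per 10000 autosomal sites. PGPEP1, a peptidase gene in the densest window, had 12, 9 and 13 sites in WT_PB and 2, 0 and 1 in WT_PBat, or 0.287 ± 0.026 and 1.32 ± 1.4 per 10000. GNG7, a G protein subunit, and SULT2B1, a sterol sulfotransferase, completed the 10 and had at most 3 sites in a shallow library.

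Zinc finger genes took a smaller part of chromosome 19 sites than their length. The 255 protein-coding genes with ZNF or ZFP symbols cover 12.3% of chromosome 19, and 3.50% ± 0.21 of WT_PB sites lay inside them (SD, n = 3). The share was 2.18% ± 0.63 in short_PB, 1.36% ± 0.82 in sym_rehyPB and 1.49% ± 0.044 in WT_PBat. Of the 255, 30 were hit in all 12 deep libraries, beside 399 of all 1451 protein-coding genes of chromosome 19 (27.5%). In any of the 15 shallow libraries 29 were hit, a count for which no matching share over all genes was computed. ZNF507 (15 sites per library in WT_PB) and ZNF536 (26) led the 10 most-hit members by number in WT_PB. On chromosome 18 the 9 such genes cover 1.59% and held 1.97% ± 0.25 of WT_PB sites, with ZNF407 (84.3 sites per library), 468 kb long, the leader.

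Ribosomal protein genes held a larger part of chromosome 19 sites than of its length in WT_PB and WT_PBat. The 12 on chromosome 19 cover 0.116% of it and held 0.449% ± 0.035 of WT_PB sites, 0.384% ± 0.0075 of short_PB sites and 2.07% ± 0.80 of WT_PBat sites. Of the 12, 8 were hit in a shallow library, again without a matching share over all genes. RPL28 had 1.67 sites per library in WT_PBat, and RPS9 had none in the deep groups. On chromosome 18, RPL17 was the only member, with 3.67 sites per library in WT_PB and none in any shallow library.

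Long genes marked chromosome 18. Its 41 protein-coding genes over 200 kb cover 19.9% of the chromosome and held 24.1% ± 0.71 of sites in WT_PB, 24.8% ± 1.5 in short_PB, 47.0% ± 4.0 in sym_rePB and 20.9% ± 1.2 in WT_PBat, with DLGAP1 among them. The other 40 held 20.6% ± 0.55 in WT_PB, 11.8% ± 1.6 in short_PB, 10.3% ± 5.5 in sym_rePB and 12.2% ± 2.5 in WT_PBat. These are shares of all chromosome 18 sites, of which DLGAP1 held 36.8% ± 9.5 in sym_rePB and 3.52% ± 0.19 in WT_PB. A larger DLGAP1 share lowers the share of the other 40, and shares of the sites outside DLGAP1 were not computed. The 5 such genes of chromosome 19 cover 2.57% and held 2.85% ± 0.19 in WT_PB and 1.13% ± 0.35 in WT_PBat.

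Of 18 cancer and colorectal genes listed on each chromosome, 17 on chromosome 18 and 7 on chromosome 19 were hit in all 12 deep libraries, beside 76.3% and 27.5% of all protein-coding genes of these chromosomes. On chromosome 18, SMAD2, SMAD4 and SMAD7 of TGF-beta signalling had 26.3, 21.7 and 14.3 sites per library in WT_PB, and the apoptosis inhibitor BCL2 had 29.7. DCC, a netrin receptor gene of 1196 kb and the longest on the list, had only 3.67. On chromosome 19, the remodelling ATPase SMARCA4 had 8.33 sites per library, DNMT1, the maintenance DNA methyltransferase, 7, and the kinase gene STK11 1.67. CEBPA, a myeloid and liver transcription factor gene of 2.6 kb, had none in the deep groups. The lists took 4.46% ± 0.12 of chromosome 18 sites and 0.858% ± 0.027 of chromosome 19 sites in WT_PB, with 5.08% and 0.989% of the length.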

How the data were processed

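Insertions were mapped in 27 HCT116 libraries, 9 groups of 3, grouped by the labels. Per the submitters' processing notes, cutadapt 3.4 and HISAT2 2.2.1.0 were used with hg38 and GRCh38.p5. Peak calling, the removal of duplicates and the meaning of the last column are not given in the sources used here. The deposited files give each peak's coverage signal, summed and at its maximum (height), as the authors made it, with no height under 5. There is 1 file per library.

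A site was a peak's start on the plus strand or its end less 3 bases on the minus strand. Within each library it was counted once per position whatever its strand, with the greater height kept. Shares are of sites on 22 autosomes. Sites per Mb use each chromosome's span up to its last site or gene end, with the genes of RefSeq GRCh38.p14, and ratios add 0.5 sites. Exact permutation tests exchanged labels within pairs of groups, and an exact sign-flip test used 512 patterns of the 9 group means. Adjustment was by Benjamini-Hochberg over 15 and over 4 tests. Bins were tested with limma 3.58.1 (R 4.3.3) on log2 shares with a prior of 0.5 sites, where at least 5 sites were expected in the smallest library, and adjusted over all bins. On simulated bins with a log2 change of 1, limma called 98.7% in the deep design and 50% in the piggyBat design. Python 3.11.15, numpy 2.4.6, pandas 2.3.3, scipy 1.17.1 and matplotlib 3.10.9 were used.

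Named items were the 10 leading protein-coding genes, the 5 densest and 3 least occupied windows, and the 5 largest called bins of each chromosome and effect, examples from 4 gene lists, and the 3 most recurrent promoter TTAA. The members and lists were chosen with earlier results of these data known. Copy number of HCT116, mappability and TTAA outside promoters were not tested. Alternatives covered height, depth, gene definitions, bins, linked libraries, the replicate block and each replicate left out. Linked libraries were averaged only in the permutation and sign-flip tests, not in limma.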

Additional observations from a re-analysis of the deposited data

Results flagged for a closer look

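The 4 pairs behind the hyperactive effect on the chromosome 19 share differed from each other. The rise was 0.135 percentage points from WT_rePB to WT_rehyPB and 1.18 points from short_PB to short_hyPB, a range of 1.04 points (exact permutation test of the difference between pairs, adjusted p = 0.0152 over 12 tests). It was 0.186 points from WT_PB to WT_hyPB and 0.418 points from sym_rePB to sym_rehyPB. The starting shares were 1.41% in WT_rePB and 2.89% in short_PB.

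The pairs behind the short-transposon effect also differed. The chromosome 19 share was 1.53 points higher in short_PB than in WT_PB and 2.52 points higher in short_hyPB than in WT_hyPB, a difference of 0.99 points (exact permutation test, adjusted p = 0.03 over the same 12 tests). Both differences involve short_hyPB and short_PB, so they rest in part on the same libraries. On the log2 density ratio the pairs behind the hyperactive and the short effect did not differ past the threshold (exact permutation test, adjusted p = 0.190 each), with 0.14 to 0.40 and 1.35 to 1.60. Depth differed within the pair of WT_rePB and WT_rehyPB, where the rise of the share was 0.072 points with heights thinned to the smallest total of the 4 deep groups, and within the pairs of the short effect.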

How the results depend on the processing

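Of 306 alternatives of 29 results, 229 kept the direction and the side of the threshold, or a count within 1.5 times, 30 lost and 5 gained the threshold, 30 moved by more and 12 values reversed. Causes were not tested unless given. With 1 replicate number left out the log2 ratio effect was 1.44 to 1.53 for short, 1.95 to 2.00 for symmetric and −0.034 to 0.013 for re-engineering. The share effect was 1.99 to 2.08 points for short and 3.07 to 3.27 for symmetric, and the gene-end effect of re-engineering −2.12 to −1.55. The calls among these were lost because the smallest possible p rises with fewer samples. Bins called were 10 to 14 on chromosome 19 and 3 on chromosome 18 for hyperactive, 0 to 4 and 5 to 11 for re-engineering, and 4 to 6 and 1 to 2 on chromosome 18 for short and symmetric.

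Replicate numbers did not pair the samples: same-numbered deviations correlated at −0.178 to 0.181, with 9 of 33 over 0.1. With the replicate block the values stayed at 2.03 and 3.17 points of share and 1.47 and 1.97 of log2 ratio for short and symmetric, and −1.85 points of gene-end share for re-engineering, but the blocked design cannot reach the adjusted threshold.

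Gene-end effects depended most on definitions. Within 1 kb the symmetric effect was 3.35 points. Within 10 kb they were 1.36 for hyperactive, −0.423 for re-engineering, −10.3 for short and −9.50 for symmetric. With protein-coding genes only they were 0.935 for hyperactive, 5.30 for short and 11.4 for symmetric, and the gene share over the 9 groups differed by −6.40 points. With all annotated genes but without the sites inside DLGAP1, the gene share differed by −2.82 points. With heights thinned to the smallest file total the gene-end effects were 4.74 for hyperactive, 9.06 for short, 0.856 for symmetric and 4.13 for piggyBat. In that setting the log2 ratio effect was 0.25 for hyperactive and 0.0017 for re-engineering, and over the 9 groups the log2 ratio was 1.42 (exact sign-flip test, adjusted p = 0.00781), the gene-end difference 13.7 points and the height difference 0.020.

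With peaks of height 10 or more, the log2 ratio effect of hyperactive was 0.18, the share effect of re-engineering −0.025 points, and the gene-end effects −1.35 for re-engineering and −17.8 for symmetric. Over the 9 groups the log2 ratio was 1.15 and the height difference 0.10. Bins called were then 9 on chromosome 19 and 2 on chromosome 18 for hyperactive, 7 on chromosome 18 for re-engineering, and 4 and 1 for short. No symmetric bins, and no piggyBat bins on chromosome 18, could be tested there. With libraries thinned to equal numbers of sites the hyperactive log2 ratio effect was 0.23 (adjusted p = 0.112), and 6, 5 and 2 bins were called on chromosome 18 for re-engineering, short and symmetric. Requiring 10 expected sites gave 4 for short and 2 for piggyBat on chromosome 18 and 4 for symmetric on chromosome 19, with fewer bins tested. Larger bins gave 5 and 5 on chromosomes 19 and 18 for short, 4 on chromosome 18 for symmetric, and 5 and 4 for piggyBat. The median scale gave 4 and 2 on chromosome 18 for short and symmetric, and no filter gave 12 for symmetric, 9 of them downward.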
